A study of Solanum lycopersicum with 12 samples.

Results

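Ethylene perception and early signalling was followed through 8 tomato genes that the deposited annotation names as ethylene receptors, as the kinase CTR1 or as EIN3-binding F-box proteins. They were listed by gene identifier, and the rule itself sets no condition on a measured value. It takes only genes present in the 2 deposited tables, which hold genes that the authors selected on the weight contrasts. Earlier results of these data were also known when the list was made. The list holds 5 receptors, 1 CTR1 kinase and 2 F-box genes, out of 6043 genes read from either of the 2 deposited tables. All 8 stood in the table of the 6 h collection, and 2 of them, the receptor Solyc09g089610.3 and the CTR1 gene, also stood in the table of the 10 day collection.

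The series measured RNA abundance in stems of the tomato variety Ailsa Craig as FPKM, a count of sequenced fragments scaled to the length of the transcript and the size of the library. Weighted plants carried a wooden clamp of 3 g at the top of stems 4.5 to 5 cm tall for 48 hours, and control plants carried none. The 4 groups of 3 libraries each were weighted stems at 10 days past the removal of the clamp, control stems collected with them, weighted stems at 6 h and control stems at 6 h. The design text counts the 6 h from the start of the treatment, while a label calls the collection post treatment. All plants were grown in a greenhouse at about 28 °C with 16 h of light and 8 h of dark. Plants of the 2 collections also differed in age, so the time since treatment and the age of the stem cannot be told apart.

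In plants, ethylene receptors sit in the membrane of the endoplasmic reticulum and work in reverse: without ethylene they are active and keep the kinase CTR1 active, and CTR1 in turn holds down the membrane protein EIN2. Binding of ethylene switches the receptors and CTR1 off, EIN2 then acts, and transcription factors of the EIN3 and EIL family accumulate. EIN3-binding F-box proteins (EBF) mark those factors for destruction and so dampen the response. Transcripts of EBF genes and of some receptors are themselves known to increase with ethylene, and the hormone is known for its part in the response of stems to touch and bending.

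The deposited domain annotation separated the 5 receptors. The probable ethylene response sensor 1 (Solyc09g075440.4) carried a GAF domain and both parts of a histidine kinase but no receiver domain. Ethylene receptor 2, also named LeETR2 (Solyc07g056580.3), and the ethylene receptor Solyc06g053710.3 carried all 4 of these annotations. The ethylene receptor Solyc05g055070.4 lacked the phosphate-acceptor annotation, and the ethylene receptor Solyc09g089610.3 lacked that of the kinase ATPase. The serine/threonine-protein kinase CTR1 (Solyc04g076480.3) was annotated with a protein kinase domain. EIN3-binding F-box protein 1 (Solyc12g009560.2, EBF1 below) and putative EIN3-binding F-box protein 2 (Solyc07g008250.3, EBF2 below) carried an F-box and leucine-rich repeats.

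The libraries were not equally alike within groups. Over genes of the 6 h table, replicates of control stems at 10 days correlated least, with r as low as 0.949, and replicates 1 and 2 of weighted stems at 10 days correlated most, with r of 0.998. Control 10 day replicate 1 was the highest of its group for 58.8% of genes and replicate 2 the lowest for 59.9%. The genes of the 6 h table had been selected by the authors for a difference at 6 h: all 2989 legible Q values of that contrast were under 0.05. Differences between weighted and control stems at 6 h are therefore given as a description, and the comparisons of collections and of weight effects share those same 6 h libraries. The weight contrast at 10 days used none of them.

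The 2 EBF genes were the most abundant of the 8 in each of the 4 groups, and control stems at 6 h were the low group for both. EBF2 stood at 114.33, 116.37 and 80.23 FPKM in weighted stems at 10 days, and at 74.77, 142.12 and 73.15 FPKM in control stems at 10 days. It stood at 129.18, 63.69 and 73.10 FPKM in weighted stems at 6 h and at 15.33, 19.74 and 22.90 FPKM in control stems at 6 h. The 3 control libraries of 6 h lay below all 9 others, and those 9 overlapped one another. The mean of weighted stems at 6 h was 4.59 times that of control stems, which on the log2(FPKM + 1) scale was a difference of 2.09 (SE 0.27).

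EBF1 followed the same outline. It stood at 135.15, 139.42 and 111.65 FPKM in weighted stems at 10 days, and at 67.31, 179.89 and 75.47 FPKM in control stems at 10 days. At 6 h it stood at 162.40, 97.17 and 105.77 FPKM in weighted stems and at 35.57, 42.90 and 53.40 FPKM in control stems. Again no other library reached down to the 3 control libraries of 6 h, and the mean of weighted stems at 6 h was 2.77 times that of control stems (log2 difference 1.43, SE 0.22).

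The balance between the 2 F-box transcripts also differed between groups. EBF1 over EBF2, a ratio of FPKM values, was 1.26 ± 0.116 in weighted stems at 10 days and 1.07 ± 0.188 in control stems at 10 days (SD, n = 3 each). It was 1.41 ± 0.139 in weighted stems at 6 h and 2.27 ± 0.0896 in control stems at 6 h (SD, n = 3 each). In control stems at 6 h the ratio spanned 2.17 to 2.33, above the highest value of any other library, 1.53. EBF2 was thus the scarcer of the pair by the widest margin in that group, and it exceeded EBF1 in 1 library, control 10 day replicate 1, at a ratio of 0.9.

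**Figure D1:**
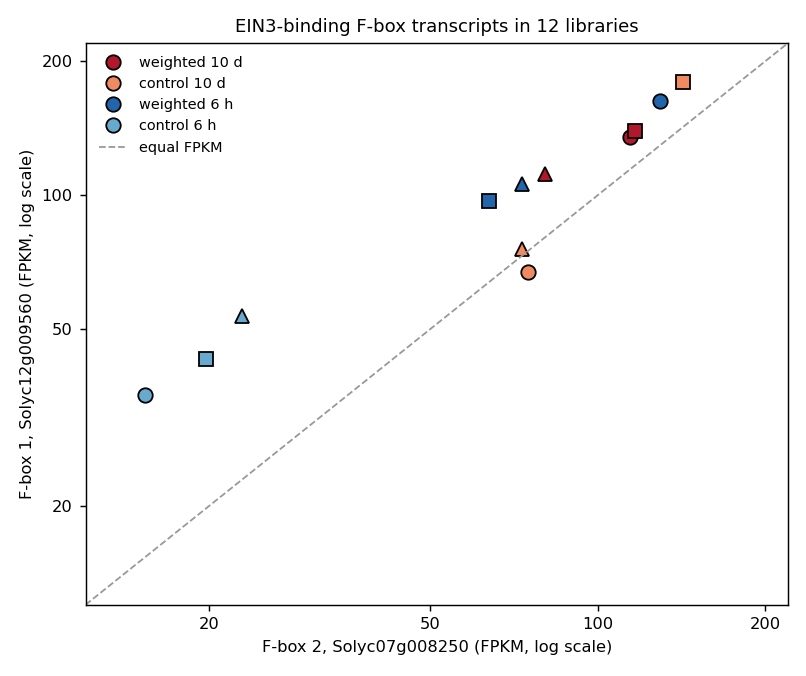
FPKM of EIN3-binding F-box 1 (vertical axis, log scale) against EIN3-binding F-box 2 (horizontal axis, log scale) in the 12 libraries; colours mark groups, circles, squares and triangles mark replicates 1, 2 and 3, and the dashed line marks equal FPKM. The 3 control libraries of 6 h lie apart at 15.33 to 22.90 FPKM of F-box 2, and the 9 others overlap between 63.69 and 142.12 FPKM.

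Among the receptors, the probable ethylene response sensor 1, a receptor of the kind without a receiver domain, showed the same low group with less spread. It stood at 27.26, 27.24 and 19.51 FPKM in weighted stems at 10 days and at 23.13, 25.41 and 23.55 FPKM in control stems at 10 days. The 6 h collection gave 23.80, 19.33 and 24.92 FPKM in weighted stems and 10.03, 9.49 and 10.69 FPKM in control stems. The mean of weighted stems at 6 h was 2.25 times that of control stems (log2 difference 1.09, SE 0.12), and both groups of 10 days overlapped weighted stems of 6 h.

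The ethylene receptor Solyc06g053710.3, with the full set of annotated domains, was the most abundant receptor by group mean in each group, though by 24.1 against 24.0 FPKM over the response sensor in control stems at 10 days. It stood at 30.23, 28.57 and 19.44 FPKM in weighted stems at 10 days and at 14.92, 36.97 and 20.34 FPKM in control stems at 10 days. At 6 h it stood at 37.60, 26.24 and 33.75 FPKM in weighted stems and at 12.20, 11.84 and 17.40 FPKM in control stems. Weighted and control stems did not overlap at 6 h, with a ratio of means of 2.35 (log2 difference 1.18, SE 0.18), while control stems at 10 days reached from inside the range of 6 h controls up to that of weighted stems.

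LeETR2 followed the collection rather than the weight. It stood at 17.40, 16.32 and 14.15 FPKM in weighted stems at 10 days and at 13.61, 15.97 and 15.04 FPKM in control stems at 10 days. Its 6 h values were 4.77, 3.85 and 4.21 FPKM in weighted stems and 6.12, 6.88 and 4.65 FPKM in control stems. All 6 libraries of 10 days lay above all 6 of 6 h, and within each collection the weighted and control libraries overlapped. Its difference at 6 h was -0.37 on the log2 scale (SE 0.15) and the authors' deposited table gives a log2 ratio of -0.49 with a Q of 0.0306.

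The ethylene receptor Solyc05g055070.4 stood highest in weighted stems at 6 h, without overlap with any other group. It stood at 9.54, 9.41 and 9.15 FPKM in weighted stems at 10 days and at 8.37, 9.83 and 8.59 FPKM in control stems at 10 days. At 6 h it stood at 19.11, 20.98 and 19.42 FPKM in weighted stems and at 13.38, 10.61 and 13.36 FPKM in control stems. The 3 levels, weighted at 6 h, control at 6 h and both groups of 10 days, did not overlap, and the ratio of means at 6 h was 1.59 (log2 difference 0.64, SE 0.11).

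The ethylene receptor Solyc09g089610.3 was the scarcest receptor, and weighted stems stood above control stems at both collections. It stood at 4.70, 4.91 and 4.76 FPKM in weighted stems at 10 days and at 1.93, 3.20 and 1.48 FPKM in control stems at 10 days. The 6 h libraries held 2.43, 1.49 and 2.03 FPKM in weighted stems and 0.38, 0.47 and 0.49 FPKM in control stems. Control stems at 10 days and weighted stems at 6 h overlapped and were the middle level. The ratios of means were 2.17 at 10 days and 4.44 at 6 h, and the log2 scale, with 1 FPKM added, gave 0.89 (SE 0.21) at 10 days and 1.03 (SE 0.14) at 6 h.

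CTR1, annotated by name as the kinase that the receptors act through, was the scarcest gene of the 8 in 3 groups. Its weighted and control stems changed order between the collections. CTR1 stood at 0.81, 0.80 and 1.48 FPKM in weighted stems at 10 days and at 0.53, 0.45 and 0.32 FPKM in control stems at 10 days. At 6 h it stood at 0.66, 0.66 and 0.56 FPKM in weighted stems and at 1.03, 1.14 and 1.47 FPKM in control stems. The weighted libraries lay above the control libraries at 10 days and below them at 6 h, without overlap at either collection. These levels are near the smallest that the filter of 1 FPKM in 3 libraries keeps, and the depth of the libraries is unknown.

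**Figure D2:**
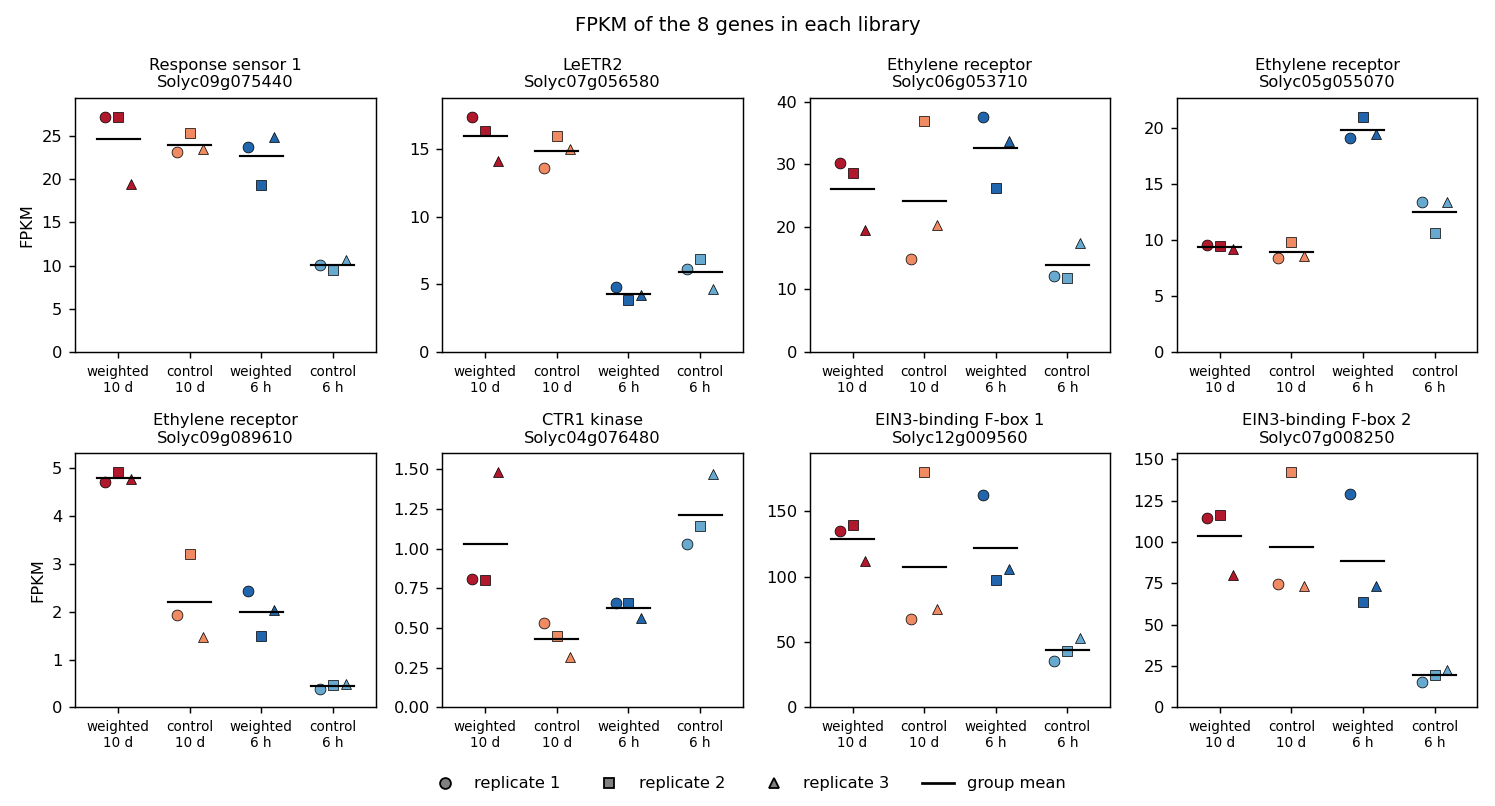
FPKM of each of the 8 genes (vertical axes, linear, from 0) in weighted and control stems at 10 days and at 6 h; circles, squares and triangles are replicates 1, 2 and 3 and bars are group means. For EBF2 the 3 control libraries of 6 h, at 15.33 to 22.90 FPKM, lie below all other libraries, while for LeETR2 all libraries of 6 h, at 3.85 to 6.88 FPKM, lie below those of 10 days.

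Summed over the 5 receptors, FPKM came to 80.8 ± 12.1 in weighted stems at 10 days and 74.1 ± 15.4 in control stems at 10 days (SD, n = 3 each). The sum was 81.3 ± 8.32 in weighted stems at 6 h and 42.7 ± 3.68 in control stems at 6 h (SD, n = 3 each). Weighted stems thus held similar sums of these 5 receptors at both collections, but in different proportions. The sums and shares leave out a further gene named ethylene receptor, Solyc11g006180.2, described below. Its mean was 18.4 FPKM in weighted stems at 10 days and 13.5 FPKM in weighted stems at 6 h. Any receptor absent from the deposited tables of selected genes is also left out. LeETR2 gave 19.8% ± 1.14 of the sum in weighted stems at 10 days and 5.26% ± 0.24 in weighted stems at 6 h (SD, n = 3 each). Solyc05g055070.4 gave 11.8% ± 1.68 in weighted stems at 10 days and 24.7% ± 3.97 in weighted stems at 6 h (SD, n = 3 each). In control stems LeETR2 gave 20.4% ± 2.54 at 10 days and 14.0% ± 3.79 at 6 h, and Solyc05g055070.4 gave 12.2% ± 1.36 at 10 days and 29.2% ± 2.43 at 6 h (SD, n = 3 each). Solyc06g053710.3 and the response sensor together were the larger part in each group mean, and Solyc09g089610.3 reached its largest share, 6.02% ± 0.96, in weighted stems at 10 days (SD, n = 3).

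**Figure D3:**
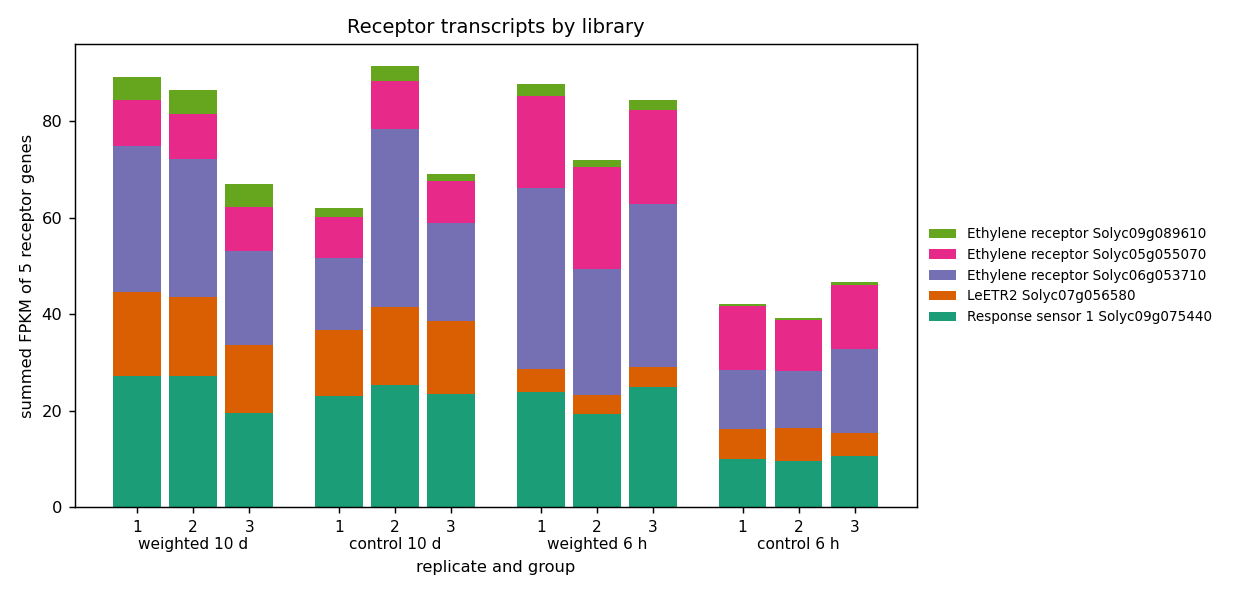
Summed FPKM of the 5 receptor genes (vertical axis, from 0) in each of the 12 libraries, stacked by gene, with replicates 1 to 3 side by side in each group. Control libraries of 6 h sum to 39.3 to 46.6 FPKM and all others to 62.0 FPKM or more, and the LeETR2 segment is thinner at 6 h than at 10 days.

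In the 6 h table, which was not selected on the 10 day contrast, no member passed the test between weighted and control stems at 10 days. The test was limma on log2(FPKM + 1), with p adjusted by Benjamini-Hochberg over the 4662 genes that reached 1 FPKM in at least 3 of the libraries compared, and an adjusted p under 0.05 counts as called. It called 0.0% of the genes tested (0 genes, with 767 at an unadjusted p under 0.05), so 0 of the 7 members tested is the background itself. The 7 estimates were all above 0, though that of the response sensor was -0.02 when scaled by median ratios, with a median of 0.15 against 0.04 over all genes tested. For the response sensor the difference was 0.02 (95% interval -0.35 to 0.39), for LeETR2 it was 0.09 (95% interval -0.21 to 0.39) and for Solyc05g055070.4 it was 0.06 (95% interval -0.20 to 0.33). The intervals of the more variable genes were wide: -0.63 to 0.99 for Solyc06g053710.3, -0.48 to 1.27 for EBF1 and -0.55 to 0.85 for EBF2. Those last 3 genes each had their highest control value in replicate 2. The EBF1 estimate of 0.40 (SE 0.37) was 0.84 (SE 0.14, adjusted p 0.111) without control replicate 2 and 0.13 (SE 0.36, adjusted p 0.85) without control replicate 1, and that of Solyc06g053710.3, 0.18 (SE 0.34), was 0.53 and -0.10 without these same libraries.

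Solyc09g089610.3 had the largest estimate of the 7 at 10 days, 0.89 (95% interval 0.39 to 1.39), which exceeded that of 99% of genes tested, with a limma adjusted p of 0.149. In a single fit over all 12 libraries its adjusted p was 0.0284, among 216 genes called there, and over the alternatives in the 6 h table it ranged between 0.0284 and 0.529. In the 10 day table, whose genes the authors selected on this contrast, limma gave the same 0.89 (SE 0.19) an adjusted p of 0.00446, between 0.000817 and 0.0179 over the alternatives. There 99.7% of genes tested were called, so that call is the background of a selected table and nothing is read from it. The authors' deposited table gives a Q of 0.0314 for this gene at 10 days. CTR1 did not reach the filter on low values at 10 days. Without the filter its difference was 0.49 (SE 0.15) with a limma adjusted p of 0.224 in the 6 h table and 0.0162 in the 10 day table, and the authors' deposited table gives a Q of 0.0275. Of the 8 genes, these 2 did not overlap between weighted and control stems at 10 days, where 23.4% of genes tested did not overlap.

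**Figure D4:**
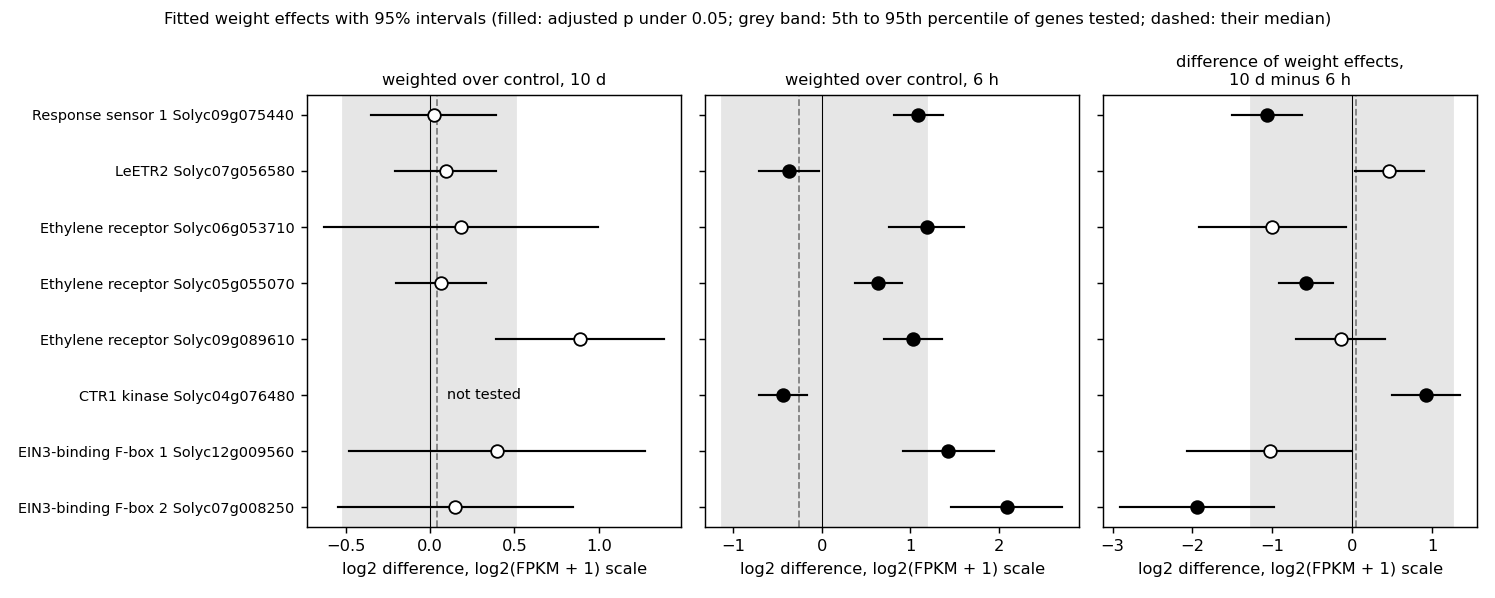
Fitted log2 differences on the log2(FPKM + 1) scale (horizontal axes) with 95% intervals for the 8 genes: weighted over control at 10 days, weighted over control at 6 h, and the first minus the second; filled points have an adjusted p under 0.05, the grey band spans the 5th to 95th percentile of genes tested and the dashed line is their median. At 10 days Solyc09g089610.3, at 0.89, lies outside the band, and at 6 h EBF1 and EBF2, at 1.43 and 2.09, lie above it.

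At 6 h the differences of 6 members were positive and those of 2, LeETR2 and CTR1, negative, in a contrast by which the table was selected and in which 99.3% of genes tested were called, 48.3% of all tested as higher and 51.0% as lower. All members but LeETR2 had groups that did not overlap, as did 95.5% of genes tested. The median over the 8 was 1.06, against -0.25 over all genes tested. EBF2 exceeded 98.7% of those genes and EBF1 96.5%, and Solyc06g053710.3, the response sensor and Solyc09g089610.3 exceeded 94.9%, 93.9% and 93.2%. For LeETR2 the limma adjusted p of 0.037 became 0.0843 to 0.113 when control replicate 1 or 2 or weighted replicate 2 or 3 was left out. For CTR1, whose level is low, the ratio of means was 0.516 and the log2 difference -0.44 (SE 0.12). CTR1 reached 1 FPKM at 6 h only in control stems, and Solyc09g089610.3 only in weighted stems, so both entered this contrast through the group where they were high.

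The weight effect differed between the collections for EBF2, the response sensor and Solyc05g055070.4, by the interaction term of a limma fit over all 12 libraries, in which 46.8% of the 5029 genes tested were called, 24.9% as positive and 21.9% as negative. Of all calls 53.3% were positive, and 65.5% when library totals were equalised. The effect at 10 days minus that at 6 h was -1.94 (SE 0.44, adjusted p 0.00672) for EBF2, -1.07 (SE 0.20, adjusted p 0.003) for the response sensor and -0.57 (SE 0.15, adjusted p 0.0135) for Solyc05g055070.4. These 3 kept an adjusted p under 0.05 in every alternative run, with each library left out included. The 6 h side of each difference is the contrast on which the genes of the table were selected. Such selection favours effects that are larger at 6 h than at 10 days. Every alternative used the same selected genes, so the alternatives cannot address it. For CTR1 the difference of effects was 0.93 (SE 0.19, limma adjusted p 0.00495), and 1.89 with a pseudocount of 0.1. CTR1 entered this fit only through the 3 control libraries of 6 h and weighted 10 day replicate 3, the libraries where it reached 1 FPKM, so its value is given as a description and not counted as a call. With no filter on low values it was also 0.93 (SE 0.18, adjusted p 0.00389). EBF1 and Solyc06g053710.3 had estimates of similar size, -1.04 (SE 0.47) and -1.0 (SE 0.42), that missed the threshold at limma adjusted p of 0.0873 and 0.0687. Without control 10 day replicate 1 both passed it, at adjusted p of 0.0374 and 0.0195. Without control 10 day replicate 2 they were -0.59 (SE 0.30, adjusted p 0.118) and -0.65 (SE 0.32, adjusted p 0.107), and without weighted 6 h replicate 1 their adjusted p were 0.192 and 0.14. LeETR2, at 0.47 (SE 0.20), had an adjusted p of 0.0697, which became 0.041 with library totals equalised and 0.0211 without control 6 h replicate 3. For Solyc09g089610.3 the difference was -0.14 (95% interval -0.70 to 0.41), and -0.76 (SE 0.37, adjusted p 0.114) with a pseudocount of 0.1; its 6 h controls lay below 0.5 FPKM.

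Between the collections, control stems differed in 5 of the 6 members that reached 1 FPKM in both groups, and weighted stems in 3 of the 7 tested. The limma test called 65.9% of genes tested in control stems, 27.2% as higher at 10 days and 38.7% as lower, and 79.2% in weighted stems, 32.1% as higher and 47.1% as lower. In control stems at 10 days against control stems at 6 h, EBF2 rose by 2.21 (SE 0.29), LeETR2 by 1.22 (SE 0.16), the response sensor by 1.18 (SE 0.11) and EBF1 by 1.15 (SE 0.38), all on the log2 scale. Solyc05g055070.4 fell by 0.43 (SE 0.14). Solyc09g089610.3, with a difference of 1.11 (SE 0.20), reached 1 FPKM only in controls of 10 days, and CTR1, with -0.62 (SE 0.13), only in controls of 6 h, so both are given as a description. The EBF1 estimate was 0.70 (SE 0.19, adjusted p 0.0182) without control 10 day replicate 2, its highest control library. The EBF1 call was lost without any 1 of the 3 control 6 h libraries (adjusted p 0.0539 to 0.103), and that of Solyc05g055070.4 under either other scaling (adjusted p 0.0631 and 0.155) and without control 6 h replicate 1 or 3 or control 10 day replicate 1 or 3 (0.0689 to 0.106). Solyc06g053710.3, at 0.68 (SE 0.33, adjusted p 0.108), was called only without control 10 day replicate 1, at 0.96 (adjusted p 0.0229), and was 0.34 (adjusted p 0.214) without control 10 day replicate 2.

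In weighted stems at 10 days against weighted stems at 6 h, LeETR2 rose by 1.68 (SE 0.12, limma adjusted p 1.56e-05) and Solyc09g089610.3 by 0.97 (SE 0.13, adjusted p 0.000419), and Solyc05g055070.4 fell by 1.01 (SE 0.09, adjusted p 3.84e-05). The response sensor, at 0.11 (95% interval -0.27 to 0.49), EBF1, at 0.11 (95% interval -0.36 to 0.58), and Solyc06g053710.3, at -0.32 (95% interval -0.79 to 0.15), did not pass. EBF2, at 0.27 (SE 0.28), did not pass either, but without weighted 6 h replicate 1, the library of its 129.18 FPKM, it was 0.58 with an adjusted p of 0.0326. Other scalings moved the median of all genes by up to 0.16 in control stems and 0.21 in weighted stems between collections, which compares with the smallest called change, the 0.43 of Solyc05g055070.4.

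EBF1, EBF2 and Solyc06g053710.3 shared an order of libraries within groups. All 3 were highest in replicate 1 of weighted stems at 6 h, in replicate 3 of control stems at 6 h and in replicate 2 of control stems at 10 days, and lowest in replicate 3 of weighted stems at 10 days. This order was found in 91 of 5029 genes (1.81%). The order was noticed in these values and was not tested. Control 10 day replicate 2, where 22.8% of genes were the highest of their group, was the highest of its group for 7 of the 8 members, CTR1 being the exception.

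The genes whose centred log2 profile over the 12 libraries lay nearest to each member, by root mean square difference among 5028 genes, carried no ethylene signalling name. For EBF2 they were a gene with a helix-loop-helix domain, Solyc06g072520.2 (0.245), and a transferase family gene, Solyc05g052680.1 (0.312). For EBF1 they were an AAA domain gene, Solyc07g066180.2 (0.208), and a protein kinase, Solyc08g067310.1 (0.238). For the response sensor they were a WD repeat gene, Solyc09g098330.3 (0.119), and Solyc02g093740.3 (0.164). For LeETR2 they were a DNA helicase, Solyc11g069350.2, and an endopeptidase, Solyc01g096300.4 (0.106 each). For Solyc05g055070.4 they were a nitrate transporter, Solyc05g007000.4 (0.0895), and a subunit of the V-type proton ATPase, Solyc12g009890.3 (0.102). For Solyc06g053710.3 they were an aromatic amino acid decarboxylase, Solyc08g006740.3 (0.263), and Solyc03g117680.4 (0.269), for Solyc09g089610.3 they were Solyc02g083120.3 (0.18) and a galactinol-sucrose galactosyltransferase, Solyc07g007930.3 (0.229), and for CTR1 they were a beta-galactosidase, Solyc11g018500.3 (0.0931), and Solyc05g054240.3 (0.15).

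Of the rest of ethylene signalling, 2 further genes were found by their annotation, and no other gene read carried the words EIN2, EIN3 or EIL. The search covered only the deposited tables of selected genes, so it does not show whether such genes were expressed in the stems. A sixth gene named ethylene receptor, Solyc11g006180.2, with receiver, GAF and ATPase annotations, stood at 19.94, 20.02 and 15.24 FPKM in weighted stems at 10 days and at 14.14, 21.77 and 14.64 FPKM in control stems at 10 days. The 6 h values were 15.73, 10.88 and 13.81 FPKM in weighted stems and 6.27, 7.71 and 6.96 FPKM in control stems, so that control stems at 6 h were again the low group. Green ripe-like 1, Solyc08g065320.3, of a family that in Arabidopsis acts on a receptor, stood at 16.62, 18.89 and 11.55 FPKM in weighted stems at 10 days and at 16.07, 20.94 and 23.40 FPKM in control stems at 10 days. At 6 h it stood at 28.18, 25.52 and 33.59 FPKM in weighted stems and at 13.60, 10.15 and 11.60 FPKM in control stems. Its weight effect at 10 days minus that at 6 h was -1.59 (SE 0.27, limma adjusted p 0.00233), and that of the sixth receptor -0.71 (SE 0.26, adjusted p 0.0446). The 6 h side of both differences is the contrast on which the genes of the table were selected.

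For ethylene synthesis, upstream of the receptors, 8 genes of the 6 h table were listed by the names ACC synthase and ACC oxidase. Of these, Solyc09g089580.4, also named protein E8, and Solyc09g089740.3 were named only as homologs of ACC oxidase. Over all genes tested in that table, 48.3% were called higher and 51.0% lower at 6 h, and 0.0% were called at 10 days. These shares are the background for this list and for those below. None of the 5 tested at 10 days was called, and at 6 h 6 were higher in weighted stems and 1 lower of 7 tested. The ACC oxidase Solyc02g036350.3, which makes ethylene from its precursor, stood at 58.49, 60.86 and 28.67 FPKM in weighted stems at 10 days and at 179.55, 68.08 and 81.77 FPKM in control stems at 10 days. Its 6 h levels were 376.09, 422.53 and 409.31 FPKM in weighted stems and 23.69, 13.91 and 25.40 FPKM in control stems. The log2 difference at 6 h was 4.24 (SE 0.21) for this gene, 1.68 (SE 0.24) for the ACC oxidase 4 gene Solyc07g049550.3 and 1.29 (SE 0.18) for the ACC synthase Solyc03g043890.3. That ACC synthase stood at 1.18 to 2.55 FPKM in weighted stems at 6 h and at 0.06 to 0.12 FPKM in control stems at 6 h. It reached 1 FPKM only in weighted stems at 6 h and so entered this contrast through the group where it was high. Its difference is therefore given as a description, although the count of 6 higher genes includes it. All 6 libraries of 10 days lay below the 3 weighted libraries of 6 h for Solyc02g036350.3, where those of EBF2 overlapped them.

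Ethylene response factors act after EIN3, and 24 genes of the 6 h table with an AP2 domain were listed for them by name. Most were named only AP2/ERF domain-containing protein, and Solyc02g092050.3 was named ANT. Such names do not set a gene after EIN3, so the list is not read as the output of the pathway. None of 15 tested at 10 days was called, and at 6 h 11 were higher and 10 lower of 21 tested, with a median of 0.64. Those with the largest difference at 6 h were Solyc01g065980.4 at 2.35 (SE 0.20), Solyc04g071770.3 at 1.84 (SE 0.41) and Solyc01g090310.3, named ERF1, at -1.72 (SE 0.50). Of 11 other two-component genes, relatives of the receptors' kinase and receiver domains, 7 were higher and 4 lower at 6 h and none of 10 tested was called at 10 days. The largest were the type-a response regulator Solyc10g079700.2 at 1.41 (SE 0.17), Solyc02g071220.3 at 1.30 (SE 0.19) and the response regulator Solyc05g014260.3 at -1.19 (SE 0.21). Of 24 other F-box genes 15 were higher and 7 lower of 23 tested at 6 h, with a median of 0.42 and the largest at 1.502 (SE 0.27) for Solyc10g017960.2, below the 2.09 of EBF2. The next were Solyc01g005300.4 at 1.15 (SE 0.18) and Solyc03g117270.1 at -1.06 (SE 0.15). A relative of CTR1 named EDR1, Solyc02g031860.3, had a difference of 0.31 (SE 0.09) at 6 h. In the 10 day table, selected on the 10 day contrast, this gene and the EDR1 gene Solyc02g031910.2 had differences of 0.52 and 0.60 at 10 days. There 3 other F-box genes, Solyc02g079190.3, Solyc08g075380.3 and Solyc09g009470.1, and 1 gene named AP2/ERF domain-containing protein, Solyc07g049490.3, had differences of -0.45 to -0.29.

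Lists of genes chosen by annotation words for stem tissues differed between the same groups. Whether the genes mark those tissues was not tested. The FPKM of 26 chlorophyll a-b binding and photosystem genes summed to 4680 to 5570 in weighted stems at 10 days and 5320 to 5950 in control stems at 10 days. They summed to 2900 to 3510 in weighted stems at 6 h and 5860 to 8330 in control stems at 6 h, and all 26 were lower in weighted stems at 6 h. The 21 genes named for cellulose synthase, laccase or xylem summed to 1740 to 1820 in weighted stems at 10 days and 1300 to 1370 in control stems at 10 days, and to 1180 to 1350 in weighted stems at 6 h and 1130 to 1270 in control stems at 6 h. Against the order of these sums, 12 of the 19 tested at 6 h were lower in weighted stems and 7 higher, with a median log2 difference of -0.52, and at 10 days none of 19 was called, with a median of 0.32. This list includes genes named cellulose synthase-like, such as Solyc03g005450.3 and Solyc09g075550.3, so its sums and medians do not stand for vascular tissue alone. The 8 epidermis and trichome genes summed to 856 to 1260 in weighted stems at 10 days and 995 to 1210 in control stems at 10 days, and to 667 to 675 in weighted stems at 6 h and 684 to 791 in control stems at 6 h, where 4 were higher and 3 lower of 7 tested, with a median of 0.73. Their part in the results on the members was not tested, and in whole stems fewer cells of a type and less RNA per cell cannot be told apart.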

How the data were processed

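Per the labels' protocols, cleaned reads of total RNA went to the genome by HISAT and to gene sequences by Bowtie2. The version, build, strand setting and handling of shared reads are, in the sources used here, not given, so receptors of similar sequence may share reads. The authors deposited FPKM per library in 2 tables of selected genes, both with all 12 libraries, and their own log2 ratios and Q values (adjusted p-values). In the 6 h table decimal marks and separators were exchanged and were restored. Of its 5346 genes, 89 with damaged digits were left out, none a member. A decimal zero was lost in 57 of 94 values of 80 FPKM or more whose first decimal is a zero, a shift of at most 0.81 FPKM. Depth is unknown.

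Computed here: limma 3.58.1 (R 4.3.3, trended variance) on log2(FPKM + 1), which understates changes of low genes, over genes with 1 FPKM or more in at least 3 libraries of the comparison. On simulated data with 200 genes changed by 1 log2 unit, 72% were recovered for weighted against control stems at 10 days in the 6 h table. The simulated spread of each gene was pooled over all 4 groups, although control replicates differed more at 10 days than at 6 h. Genes as low as CTR1 were not among those changed. The 72% can therefore overstate recovery at 10 days and does not cover such genes. Alternatives were another pseudocount, filter, scaling, a replicate block, 1 fit over all libraries, each library left out, and, chosen after seeing the data, the closest 2 libraries averaged. The labels call the replicates biological; p-values measure the spread between them. Members and lists were chosen with earlier results of these data known. Named genes beside the members are up to 3 per list with the largest weight difference and the 2 nearest profiles per member; no member's identifier matched the reference table, so no positions or sequences are given.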

Additional observations from a re-analysis of the deposited data

Results flagged for a closer look

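The weight effect differed between the collections, by the interaction term of limma over all 12 libraries, for 3 members. That fit called 46.8% of the 5029 genes tested, 24.9% as positive and 21.9% as negative, so the count is not read as particular to the members. The effect at 10 days minus that at 6 h was -1.94 for EBF2 (Solyc07g008250.3), -1.07 for the probable ethylene response sensor 1 (Solyc09g075440.4) and -0.57 for the ethylene receptor Solyc05g055070.4, all more positive at 6 h. The value for CTR1 (Solyc04g076480.3) was 0.93, a description, since that gene entered the fit only through the 3 control libraries of 6 h and 1 weighted library of 10 days that reached 1 FPKM. The 6 h side of each difference is the contrast on which the authors selected the genes of the table.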

How the results depend on the processing

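Of the single-gene results recomputed under the alternatives, 596 kept direction and side of the threshold, 20 lost a call, 7 gained one and 10 changed sign. Those that changed sign were differences not called at first: weighted over control at 10 days for the response sensor (-0.0213 with median ratios, -0.0553 with weighted 10 day replicates 1 and 2 averaged, -0.0555 to 0.1757 with 1 library left out), for Solyc06g053710.3 (-0.0964 to 0.5306) and EBF2 (-0.0128 to 0.4615) with 1 library left out, weighted stems at 10 days over 6 h for EBF1 (-0.0325 to 0.335, likewise), and the difference of weight effects for Solyc09g089610.3 in both tables (-0.3099 to 0.0702, likewise). Genes called between weighted and control stems at 10 days in the 6 h table were 0, with 767 at an unadjusted p under 0.05, but 6 with a filter of 5 FPKM, 5 with median ratios, 216 in 1 fit over 12 libraries and 0 to 2 with a library left out (2 without control 10 day replicate 2). Genes called at 6 h in the 10 day table were 297 (150 higher), but 448 (359 higher) with totals equalised, 87 with the replicate block and 86 to 344 with 1 library left out. The causes were not tested. Same-numbered libraries did not deviate together in every pair (r -0.445 to 0.547, the highest for weighted and control 10 day replicates 2), so the numbers were not taken to pair them. With the block the LeETR2 call at 6 h (adjusted p 0.0588) and the Solyc05g055070.4 call in control stems between collections (0.0869) were lost. Depth is unknown, so counting error for CTR1 and Solyc09g089610.3 could not be given.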
